A study of Mus musculus with 8 samples.

Results

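Transcripts of 10 genes that encode granule, cytosolic and surface proteins of neutrophils were followed in brain RNA of mice with experimental autoimmune encephalomyelitis: Lcn2, S100a8, S100a9, Ly6g, Chil3, Ngp, Camp, Ltf, Mmp8 and Retnlg. The genes were chosen by name, and each was represented by 1 probe set, so that they make up 10 of the 22180 genes with a value. RNA of total brain was hybridised to 8 Affymetrix whole-transcript microarrays, 1 per sample, taken on day 14 after immunization with myelin oligodendrocyte glycoprotein (MOG), when the labels place the disease maximum. All mice were immunized, so no group shows these genes without disease.

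The 4 groups held 2 arrays each. The first was C57BL/6Je/e mice, with a yellow coat, given NDP-MSH (e/e NDP-MSH), the second was C57BL/6Je/e mice given phosphate-buffered saline (e/e PBS), the third was wild-type mice, with a black coat, given NDP-MSH, and the fourth was wild-type mice given PBS. The e allele inactivates the melanocortin receptor Mc1r in every cell that would carry it, and NDP-MSH is a stable analog of the hormone alpha-MSH, which acts on several melanocortin receptors. It was given by intravenous injection, 5 µg for each mouse, on days 8, 10 and 12. The labels do not say whether the 2 arrays of a group were different animals. The e/e PBS arrays differed in the Y-linked gene Eif2s3y (-0.02 and 2.04), and the wild-type NDP-MSH arrays in the pituitary gene Prl (6.97 and -0.22). In these 2 groups the arrays were thus not the same RNA, and the spread behind the p-values holds such differences. In the other 2 groups it may be technical only. The series names NDP-MSH against PBS within each genotype as its comparisons.

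Neutrophils are short-lived white cells that make most of their granule proteins while they mature in the bone marrow, in an order that follows their development: primary granules first, then secondary and tertiary granules. Ngp, Camp, Ltf, Lcn2 and Mmp8 belong to the secondary and tertiary granule set, S100a8 and S100a9 fill the cytosol, Chil3 and Retnlg are secreted, and Ly6g is the surface protein by which mouse neutrophils are usually sorted. Some of these transcripts have other sources in an inflamed brain: Lcn2 is a known product of reactive astrocytes, and Chil3 is also made by monocytes and macrophages.

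All 10 genes had an entry in the RefSeq promoter table of build GRCm38.p6, which gives 300 bases around each start site, most of them upstream. The windows were searched on both strands for GGG followed by any 5 bases and CC, a core of NF-kB sites, and for TTGCNNAA, a core of sites of the C/EBP family, whose members direct granule gene transcription. These 4 genes are shown because they stand for the patterns described further on: Lcn2 (chr2:32387690-32387989, minus strand), Chil3 (chr3:106167515-106167814, minus strand), Ngp (chr9:110419558-110419857, plus strand) and Mmp8 (chr9:7558179-7558478, plus strand). Each reads 5′ to 3′ on the gene's strand, and capitals mark the motif matches.
Lcn2: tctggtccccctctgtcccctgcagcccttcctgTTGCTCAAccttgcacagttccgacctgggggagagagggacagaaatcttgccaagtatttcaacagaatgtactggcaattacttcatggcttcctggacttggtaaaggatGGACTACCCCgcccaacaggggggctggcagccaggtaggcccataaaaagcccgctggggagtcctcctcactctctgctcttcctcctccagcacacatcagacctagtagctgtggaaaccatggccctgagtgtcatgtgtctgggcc
Chil3: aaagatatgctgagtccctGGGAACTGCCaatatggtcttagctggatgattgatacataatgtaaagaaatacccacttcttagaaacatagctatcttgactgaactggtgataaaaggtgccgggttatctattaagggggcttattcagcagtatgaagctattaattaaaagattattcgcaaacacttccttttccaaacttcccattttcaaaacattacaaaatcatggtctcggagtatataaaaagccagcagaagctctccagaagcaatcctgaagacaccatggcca
Ngp: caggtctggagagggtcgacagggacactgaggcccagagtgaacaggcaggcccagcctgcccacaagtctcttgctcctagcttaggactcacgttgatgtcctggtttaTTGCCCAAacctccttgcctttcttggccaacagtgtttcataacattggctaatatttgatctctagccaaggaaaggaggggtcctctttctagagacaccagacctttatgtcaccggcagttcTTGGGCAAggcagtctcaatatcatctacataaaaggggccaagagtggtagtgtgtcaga
Mmp8: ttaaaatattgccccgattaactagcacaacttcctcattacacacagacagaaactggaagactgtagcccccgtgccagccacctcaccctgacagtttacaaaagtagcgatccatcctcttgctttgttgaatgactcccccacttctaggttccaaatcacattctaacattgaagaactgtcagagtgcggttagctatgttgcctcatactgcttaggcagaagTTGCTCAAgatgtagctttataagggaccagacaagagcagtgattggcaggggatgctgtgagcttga

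The Lcn2 window held a C/EBP match that begins at base -216 from the start site and an NF-kB match at base -102. The Chil3 window held an NF-kB match at base -231 and no C/EBP match. Ngp had C/EBP matches at bases -138 and -11, and Mmp8 had one at base -19. In the whole set, 7 of 10 genes (Lcn2, S100a9, Ly6g, Ngp, Ltf, Mmp8 and Retnlg) had a C/EBP match, against 10.8% of the 32851 promoter windows in the table, and 5 of 10 (Lcn2, Ly6g, Chil3, Camp and Ltf) had an NF-kB match, against 50.8% of all windows. A match is a run of letters, and no binding was measured here.

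The deposited values, taken as log2, are centred gene by gene on the median of the 8 arrays, so a value gives an array's distance from that median and not a level of RNA, and neither brain nor neutrophil identity could be checked by level. The number step in the stored values placed the signal before centring at 8 or above for Lcn2 and at 4 to 8 for 8 of the genes, with Chil3 unresolved. Of all probe sets named by 1 gene, 16462 lay in the lower range and 7017 in the upper one. Arrays differed in sex-linked and regional transcripts. Xist, transcribed from the inactive X chromosome, was -4.46 and -4.56 for e/e NDP-MSH, against -0.82 to 0.67 for the other 6 arrays, while the Y-linked gene Eif2s3y was 2.78 and 2.87 for e/e NDP-MSH, 2.04 for e/e PBS 2 and -0.19 to 0.02 for the other 5. The median of 6 cerebellar genes was -2.67 and -1.96 for wild-type NDP-MSH, against -0.08 to 0.36 for the other 6 arrays, and that of 4 anterior pituitary genes lay at 5.09 in wild-type NDP-MSH 1 alone, against 0.15 or less elsewhere. Low Xist and treatment therefore cannot be told apart among e/e mice, nor can brain region and treatment among wild-type mice. High Eif2s3y went with treatment only in part, as e/e PBS 2 had it too.

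The 10 genes did not vary as a block. Lcn2 and Chil3 spread widely over the arrays and were low in e/e mice. The other 8 genes lay in narrower ranges than these and overlapped between genotypes. Among them, Mmp8, Ly6g and Retnlg had their highest group mean in wild-type NDP-MSH, as S100a8 did by 0.06 over the next group. S100a9, Ngp, Camp and Ltf had theirs in e/e PBS. Chil3 spanned 4.24 log2 units over the 8 arrays and Lcn2 spanned 2.15, more than 99.5% of all genes. Mmp8 spanned 1.13, S100a8 0.85, Retnlg 0.66, Ngp 0.59, S100a9 0.55, Ltf 0.53 and Ly6g 0.50, and Camp spanned 0.20, against a median of 0.33 over all genes.

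**Figure D1:**
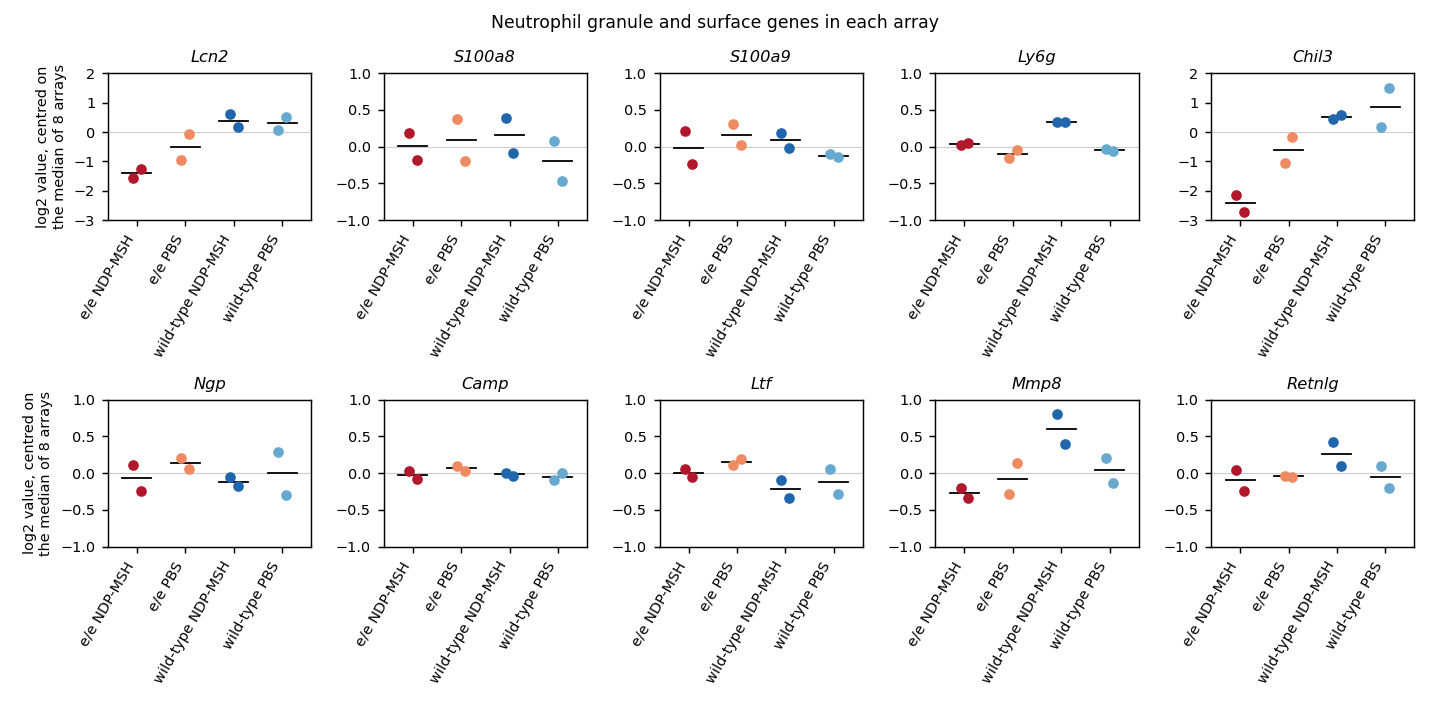
Each panel shows 1 gene: points are single arrays (2 per group), short lines are group means, and the y axis is the log2 value centred on the median of the 8 arrays (-3 to 2 for Lcn2 and Chil3, -1 to 1 for the other 8). In Lcn2 and Chil3 all 4 e/e arrays sit below all 4 wild-type arrays, and in Ly6g and Mmp8 both wild-type NDP-MSH arrays sit above the other 6.

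Lcn2 encodes lipocalin 2, which binds iron-carrying siderophores of bacteria. Its values were -1.55 and -1.27 in e/e NDP-MSH 1 and 2, -0.94 and -0.08 in e/e PBS, 0.60 and 0.18 in wild-type NDP-MSH and 0.08 and 0.51 in wild-type PBS. The e/e NDP-MSH arrays were the lowest, e/e PBS 1 came next, and e/e PBS 2 lay just under the wild-type range of 0.08 to 0.60. The wild-type groups overlapped each other, and each e/e group was separate from every other group.

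Chil3 encodes a chitinase-like lectin, also called Ym1, which is abundant in neutrophils and in alternatively activated macrophages. Its values were -2.13 and -2.73 in e/e NDP-MSH, -1.05 and -0.17 in e/e PBS, 0.44 and 0.57 in wild-type NDP-MSH and 0.17 and 1.51 in wild-type PBS. The order of the arrays by genotype and treatment was that of Lcn2: e/e NDP-MSH lowest, e/e PBS next, and the wild-type groups highest and overlapping. Lcn2 and Chil3 were the only ones of the 10 in which all e/e arrays lay below all wild-type arrays, an arrangement that 2.57% of all genes had.

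The secondary granule genes Ngp, Camp and Ltf lay closer to their medians. Ngp encodes neutrophilic granule protein, a cystatin-like protein of marrow granulocytes, and had values of 0.11 and -0.24 in e/e NDP-MSH, 0.21 and 0.06 in e/e PBS, -0.06 and -0.18 in wild-type NDP-MSH and 0.29 and -0.30 in wild-type PBS. Its widest spread was between the 2 wild-type PBS arrays, so that group alone covered every other group. Camp encodes the cathelicidin precursor of an antimicrobial peptide, and all 8 arrays lay between -0.10 and 0.10. Ltf encodes lactoferrin, an iron-binding protein, with 0.05 and -0.05 in e/e NDP-MSH, 0.11 and 0.19 in e/e PBS, -0.09 and -0.34 in wild-type NDP-MSH and 0.05 and -0.29 in wild-type PBS. Both e/e PBS arrays were above the other 6 for Ltf, by less than the pooled SD of 0.16 at the nearest array.

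S100a8 and S100a9 encode the 2 subunits of calprotectin, a calcium- and zinc-binding heterodimer. S100a8 had values of 0.19 and -0.18 in e/e NDP-MSH, 0.38 and -0.19 in e/e PBS, 0.39 and -0.08 in wild-type NDP-MSH and 0.08 and -0.46 in wild-type PBS. S100a9 had values of 0.21 and -0.24 in e/e NDP-MSH, 0.31 and 0.02 in e/e PBS, 0.19 and -0.02 in wild-type NDP-MSH and -0.10 and -0.14 in wild-type PBS. In both genes the array numbered 1 was above the array numbered 2 in all 4 groups, so the distance within a group (pooled SD 0.35 for S100a8 and 0.20 for S100a9) was larger than most distances between group means. No neighbouring group means of either gene were separated by non-overlapping arrays.

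Mmp8 encodes neutrophil collagenase, a protease that cuts collagen. Its values were -0.20 and -0.34 in e/e NDP-MSH, -0.28 and 0.13 in e/e PBS, 0.80 and 0.39 in wild-type NDP-MSH and 0.20 and -0.13 in wild-type PBS. Retnlg encodes a resistin-like protein of the granulocyte lineage, and it had values of 0.04 and -0.24 in e/e NDP-MSH, -0.04 and -0.05 in e/e PBS, 0.42 and 0.09 in wild-type NDP-MSH and 0.10 and -0.20 in wild-type PBS. For both genes wild-type NDP-MSH 1 was the highest array, and it is the array with pituitary transcripts at 5.09.

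Ly6g is a lipid-anchored surface protein of unsettled function and the standard mark of mouse neutrophils. Its values were 0.03 and 0.05 in e/e NDP-MSH, -0.16 and -0.04 in e/e PBS, 0.34 and 0.34 in wild-type NDP-MSH and -0.03 and -0.06 in wild-type PBS. Replicates agreed more closely than for the other 9 genes, with a pooled SD of 0.04 against a median of 0.10 over all genes. Ly6g has close relatives in the Ly6 cluster, and whether its probes also read them was not tested. The wild-type NDP-MSH arrays stood above the rest, and these are the 2 arrays with low cerebellar transcripts.

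In wild-type mice, the comparison of NDP-MSH with PBS asks how the peptide changed brain RNA where Mc1r works. None of the 10 genes passed an adjusted p of 0.05 in the limma fit over all genes (Benjamini-Hochberg), and 0.176% of all genes did. Ly6g differed most clearly, higher by 0.39 ± 0.07 (SE; adjusted p = 0.159), followed by Mmp8, higher by 0.56 ± 0.19 (adjusted p = 0.325). At an unadjusted p under 0.05 these 2 genes stood out, both higher, as were 6.72% of all genes. Lcn2 differed by 0.10 ± 0.29, with a 95% interval of -0.58 to 0.77, and Chil3 by -0.34 ± 0.45, with an interval of -1.39 to 0.72. Over the set, 7 genes were higher and 3 lower, with a median difference of 0.15 against 0.02 over all genes, of which 55% were higher. The median was 0.05 without wild-type NDP-MSH 1, 0.31 without wild-type NDP-MSH 2 and between these without any other array. The arrays of the groups did not overlap for S100a9, Ly6g and Mmp8, all higher, and lay apart in this direction for 25.3% of all genes. The sign of Chil3 turned on 1 array, at -1.01 without wild-type PBS 1 and 0.34 without wild-type PBS 2. Mmp8 kept its sign in every alternative and was at 0.35 without wild-type NDP-MSH 1, the array with pituitary transcripts. The cerebellar genes had a median difference of -2.38, so brain region and treatment cannot be told apart here.

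In e/e mice, the same comparison asks what the peptide does without Mc1r. The 10 genes lay lower rather than higher, Lcn2 and Chil3 by far the most, but none passed the test: the adjusted p was 1 for each, and 0% of all genes passed, with 3.56% at an unadjusted p under 0.05, and 1.78% at such a p and lower. Chil3 was lower by 1.82 ± 0.45 on the log2 scale, or 3.53-fold, with an interval of -2.87 to -0.76 and an unadjusted p = 0.00438. Lcn2 was lower by 0.90 ± 0.29, or 1.87-fold, with an interval of -1.58 to -0.23 and an unadjusted p = 0.0156. The other 8 differences lay between -0.20 for Ngp and 0.13 for Ly6g, each within 2 SE of 0. In all, 9 genes were lower and 1 higher, with a median of -0.17 against 0.01 over all genes, of which 46.3% were lower. That median was -0.03 without e/e NDP-MSH 2 and -0.27 without e/e NDP-MSH 1. Arrays of the groups did not overlap for Lcn2, Chil3, Camp and Ltf, all lower, as for 14.3% of all genes, nor for Ly6g, which was higher, as for 16% of all genes. The sizes depended on e/e PBS 1, which was itself low in both genes: without it Chil3 was at -2.26 and Lcn2 at -1.33, and without e/e PBS 2 they were at -1.38 and -0.47. Under quantile normalization Chil3 was at -0.99 and Lcn2 at -0.50. In bulk RNA, fewer cells that make a transcript and less of it per cell cannot be told apart. Xist differed by -4.38 in the same comparison, so low Xist and treatment cannot be told apart here.

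The difference between the effects in e/e mice and in wild-type mice was below 0 for all 10 genes, as it was for 52.8% of all genes, with a median of -0.37 against -0.01 over all genes. The median was -0.56 without e/e NDP-MSH 1 and -0.22 without wild-type PBS 2, and Ngp and Ltf changed sign without wild-type PBS 2. None passed (limma), nor did any other gene (0% of all genes), while 3 of the 10 had an unadjusted p under 0.05, all lower, against 7.71% of all genes, or 3.67% counting those lower. These were Mmp8, with -0.75 ± 0.27 (adjusted p = 0.598), Ly6g, with -0.25 ± 0.10 (adjusted p = 0.632), and Lcn2, with an SE of 0.41 and an interval of -1.96 to -0.04 (adjusted p = 0.632). Chil3 had the widest estimate, -1.48 ± 0.64 (adjusted p = 0.646). Without 1 array it ranged between -2.15 (without wild-type PBS 2) and -0.81 (without wild-type PBS 1), and under quantile normalization Chil3 was at -0.34 and Lcn2 at -0.54. For Ltf, Ngp and Camp the differences were -0.05, -0.09 and -0.12, each smaller than 1.5 SE. This comparison uses the arrays of both preceding ones and adds no independent sample.

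Under PBS alone, e/e mice had lower Chil3, by 1.45 ± 0.45 (adjusted p = 0.957), and lower Lcn2, by 0.80 ± 0.29 (adjusted p = 0.971), than wild-type mice, and neither passed the test, as 0% of all genes did (limma; 4.91% had an unadjusted p under 0.05 and 2.56% had one and were lower, Chil3 and Lcn2 among them). Ltf differed by 0.27 ± 0.13, S100a8 by 0.29 ± 0.27 and S100a9 by 0.28 ± 0.16, all higher in e/e. Of the 10, 6 were higher and 4 lower, with a median of 0.06, against 0.00 over all genes, of which 50.1% were higher, and the median changed sign with the array left out, at -0.11 without wild-type PBS 2 and 0.11 without wild-type PBS 1. Arrays did not overlap for Lcn2 and Chil3, both lower, as for 16.7% of all genes, nor for S100a9, Camp and Ltf, all higher, as for 17.4% of all genes. Lcn2 was at -0.37 without e/e PBS 1 and at -1.23 without e/e PBS 2, and Chil3 was at -0.78 without wild-type PBS 2 and at -2.12 without wild-type PBS 1. Of the arrays compared, only e/e PBS 2 had high Eif2s3y (2.04), so sex-linked signal and genotype are not fully separate here.

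**Figure D2:**
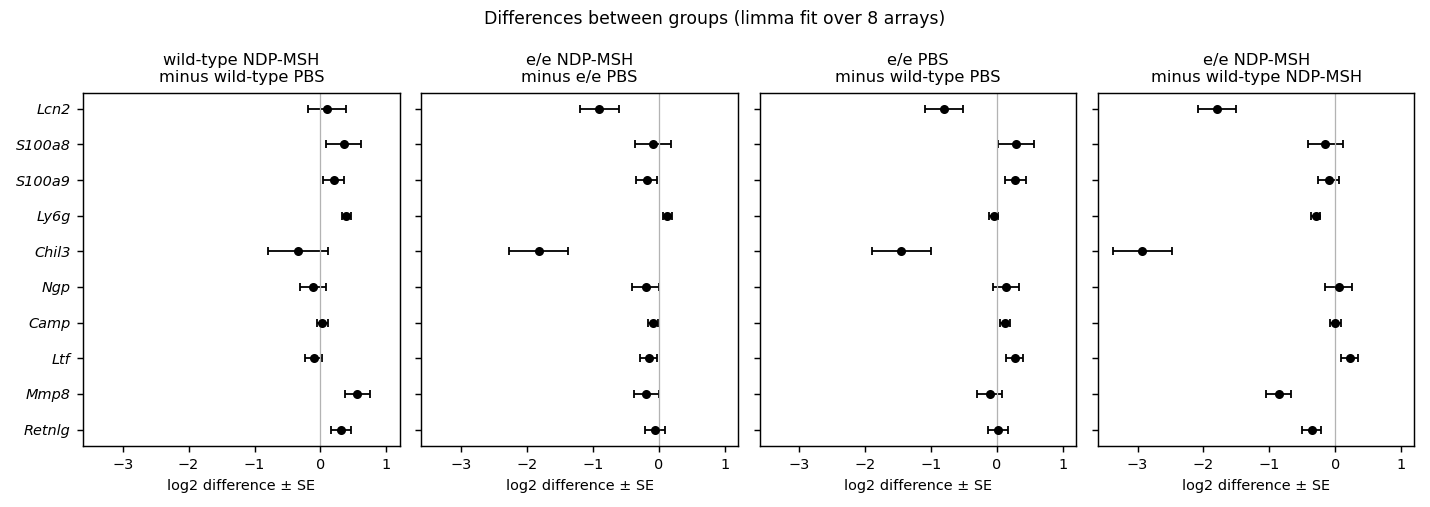
The 4 panels show the log2 difference of each gene (x axis) with its SE from the limma fit over 8 arrays, for NDP-MSH minus PBS in wild-type and in e/e mice, and for e/e minus wild-type under PBS and under NDP-MSH. Chil3 and Lcn2 lie furthest to the left in the last 3 panels, at -2.93 and -1.80 in the last one, and most other genes lie within 0.5 of 0.

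The genotypes were also compared under NDP-MSH, a comparison added after the values were seen. Chil3 was lower in e/e NDP-MSH than in wild-type NDP-MSH by 2.93 ± 0.45, or 7.63-fold (adjusted p = 0.058), and Lcn2 by 1.80 ± 0.29, or 3.48-fold (adjusted p = 0.0638). Mmp8 was lower by 0.86 ± 0.19 (adjusted p = 0.116), Ly6g by 0.30 ± 0.07 (adjusted p = 0.136) and Retnlg by 0.36 ± 0.15 (adjusted p = 0.349). None of the 10 passed, while 0.338% of all genes did, and these 5 genes had an unadjusted p under 0.05, as had 7.45% of all genes in that direction. For the same 5 genes both e/e arrays lay below both wild-type ones, as for 23.6% of all genes, and for Ltf above them, as for 20.6%. Over the set 8 were lower and 2 higher, with a median of -0.23, against -0.01 over all genes, of which 52.4% were lower. The median was -0.09 without wild-type NDP-MSH 1 and -0.34 without wild-type NDP-MSH 2. Under quantile normalization Chil3 was at -1.88 and Lcn2 at -1.20. S100a8, S100a9, Ngp, Camp and Ltf differed by -0.15, -0.10, 0.05, 0.00 and 0.22. Lcn2, Chil3 and Mmp8 passed when only the 4 arrays compared were fitted with limma (adjusted p = 0.00614, 0.00201 and 0.0484). That setting raised the calls for all genes, with 477 of 22180 passing against 75 in the main fit, so these passes are not particular to the 3 genes. Without either e/e PBS array Lcn2 stayed at -1.80 and Chil3 at -2.93. The 2 groups differ in genotype, in sex-linked transcripts and in cerebellar and pituitary transcripts, which cannot be told apart here.

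Other genes of the neutrophil programme were followed in lists that do not hold the 10. Of 9 primary granule genes, made earliest in the marrow and including the myeloperoxidase gene Mpo and the elastase gene Elane, 8 were lower and 1 higher in e/e mice given NDP-MSH than in those given PBS, with a median of -0.09 and none past the test. The list's median by array lay between -0.01 and 0.07 in all 8. Within it, Lyz2 and Ctsc stood apart. Ctsc, a cathepsin that activates granule proteases, had values of -1.79 and -1.95 in e/e NDP-MSH, -1.51 and 0.44 in e/e PBS, 0.41 and 0.12 in wild-type NDP-MSH and -0.12 and 0.35 in wild-type PBS. Lyz2, a lysozyme of macrophages as well as neutrophils, had values of -2.09 and -2.38 in e/e NDP-MSH, -1.87 and 0.12 in e/e PBS, 0.60 and -0.12 in wild-type NDP-MSH and 0.47 and 1.06 in wild-type PBS. In both genes e/e PBS 2 lay within the wild-type range or above it, and the other 3 e/e arrays were low. In e/e mice Ctsc differed by -1.34 ± 0.53 and Lyz2 by -1.36 ± 0.58 between NDP-MSH and PBS, and neither passed (adjusted p = 1). Without e/e PBS 1 they were at -2.31, where Ctsc passed (adjusted p = 0.0295), and -2.36. Both were at -0.37 when e/e PBS 2 was left out. Of the 11 other secondary and tertiary granule genes, 9 were lower and 2 higher in e/e mice given NDP-MSH than in those given PBS, with a median of -0.09 and none past the test. The lowest p there was that of Hp, the haptoglobin gene, at -0.57 ± 0.24, followed by Adam8 at -0.37 ± 0.23, and without e/e PBS 2 these were at -0.25 and -0.07. In wild-type mice 8 of these 11 were higher after NDP-MSH, none past the test, led by Pglyrp1, a bacterial cell wall binder, at 0.54 ± 0.16 (adjusted p = 0.279). Of all genes, 55% were higher there. The 9 primary granule genes did not share this direction, with 3 higher and 6 lower and a median of -0.04.

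List medians of surface receptors and adhesion molecules of neutrophils were spread more widely over the arrays than those of granule genes. Their median over 15 measured genes had values of -0.61 and -0.73 in e/e NDP-MSH, -0.34 and 0.08 in e/e PBS, 0.52 and -0.01 in wild-type NDP-MSH and 0.04 and 0.35 in wild-type PBS. Single genes of the list differed in spread. Clec4e spanned 2.63 over the arrays, Itgb2 2.40 and Fcgr4 2.19, but Cxcr1 and Mrgpra2b spanned 0.29, Trem1 0.24 and Ltb4r1 0.18. Which cells these values come from was not tested. Under NDP-MSH, 14 of 15 were lower in e/e than in wild-type mice, with a median of -0.97, and 1 passed the test, as did 0.0721% of all genes in that direction. That gene was Selplg, the ligand by which leukocytes roll on selectins, lower by 1.02 ± 0.13 (adjusted p = 0.0364), with -0.35 and -0.48 in e/e NDP-MSH against 0.71 and 0.51 in wild-type NDP-MSH. Over 17 alternative settings its adjusted p ranged between 0.00992 and 0.266 and stayed under 0.05 in 10. The adjusted p was 0.0715 with the replicate number as a block, 0.0522 with array weights and 0.0959 under quantile normalization. It was also over 0.05 without any 1 of the 4 arrays compared, and its value without e/e NDP-MSH 1 was -1.09 (adjusted p = 0.181). Within e/e mice, 13 of 15 were lower after NDP-MSH with a median of -0.39, none past the test, with Selplg at -0.33 ± 0.13 and Itgb2, the integrin chain shared by leukocytes, at -1.08 ± 0.47 (adjusted p = 1). Itgb2 was at -1.81 without e/e PBS 1 and at -0.35 without e/e PBS 2. In wild-type mice, 8 of 15 were higher and 7 lower.

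The NADPH oxidase, which makes the oxidative burst of phagocytes, was low in the same 3 e/e arrays: its median over 5 genes had values of -0.93 and -1.09 in e/e NDP-MSH, -0.94 and 0.15 in e/e PBS, 0.50 and -0.02 in wild-type NDP-MSH and 0.03 and 0.45 in wild-type PBS. All 5 were lower after NDP-MSH in e/e mice, none past the test, with Cybb, the catalytic chain, at -1.88 ± 0.83 and Ncf1 at -0.70 ± 0.32 (adjusted p = 1). Cybb was at -3.31 without e/e PBS 1 and at -0.44 without e/e PBS 2, and Ncf1 at -1.18 and -0.21. Among 14 genes that recruit neutrophils, 10 were lower and 4 higher in that comparison. Il1b, the interleukin-1 beta gene, was at -1.63 ± 0.67 and Il1a at -0.71 ± 0.33. Without e/e PBS 1 they were at -2.80, where Il1b passed (adjusted p = 0.0499), and -1.21. They were at -0.47 and -0.22 when e/e PBS 2 was left out. In wild-type mice 11 of the 14 were higher after NDP-MSH, with Selp, the P-selectin of vessels and platelets, at 1.16 ± 0.31 (adjusted p = 0.256) and the chemokine gene Cxcl1 at 0.41 ± 0.18. With all 8 arrays, none of the 14 passed in either comparison. Of 6 granulocyte transcription factors, 4 were lower after NDP-MSH in e/e mice, with Cebpd at -0.50 ± 0.14 and Spi1 at -0.48 ± 0.23 (adjusted p = 1), and none passed. Without e/e PBS 2 these were at -0.29 and -0.07.

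No receptor, partner or relative of the 10 proteins in these lists passed the test. Among 8 receptors for them, 5 were lower and 3 higher after NDP-MSH in e/e mice. Cd14 and Tlr4, through which calprotectin can signal, were at -0.45 ± 0.20 and -0.40 ± 0.19, and both were at -0.12 without e/e PBS 2. In wild-type mice 4 were higher and 4 lower, with Ager, another calprotectin receptor, at -0.27 ± 0.11 (adjusted p = 0.373). Of 11 other S100 genes, 9 were higher in wild-type mice after NDP-MSH, with S100a6 at 0.51 ± 0.18 (adjusted p = 0.332), while S100b, a glial gene, was at -0.29 ± 0.10 (adjusted p = 0.316). Of the 6 other chitinase-family genes, none was as low as Chil3 in e/e mice given NDP-MSH: their differences from PBS lay between -0.48 and 0.14. Chil5 had the smallest p of the family in wild-type mice, at -1.05 ± 0.25 (adjusted p = 0.227), and was at -0.63 without wild-type PBS 2. Of 7 stefin A and other cytosolic neutrophil genes, 3 were higher and 4 lower in e/e mice, all between -0.13 and 0.09.

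**Figure D3:**
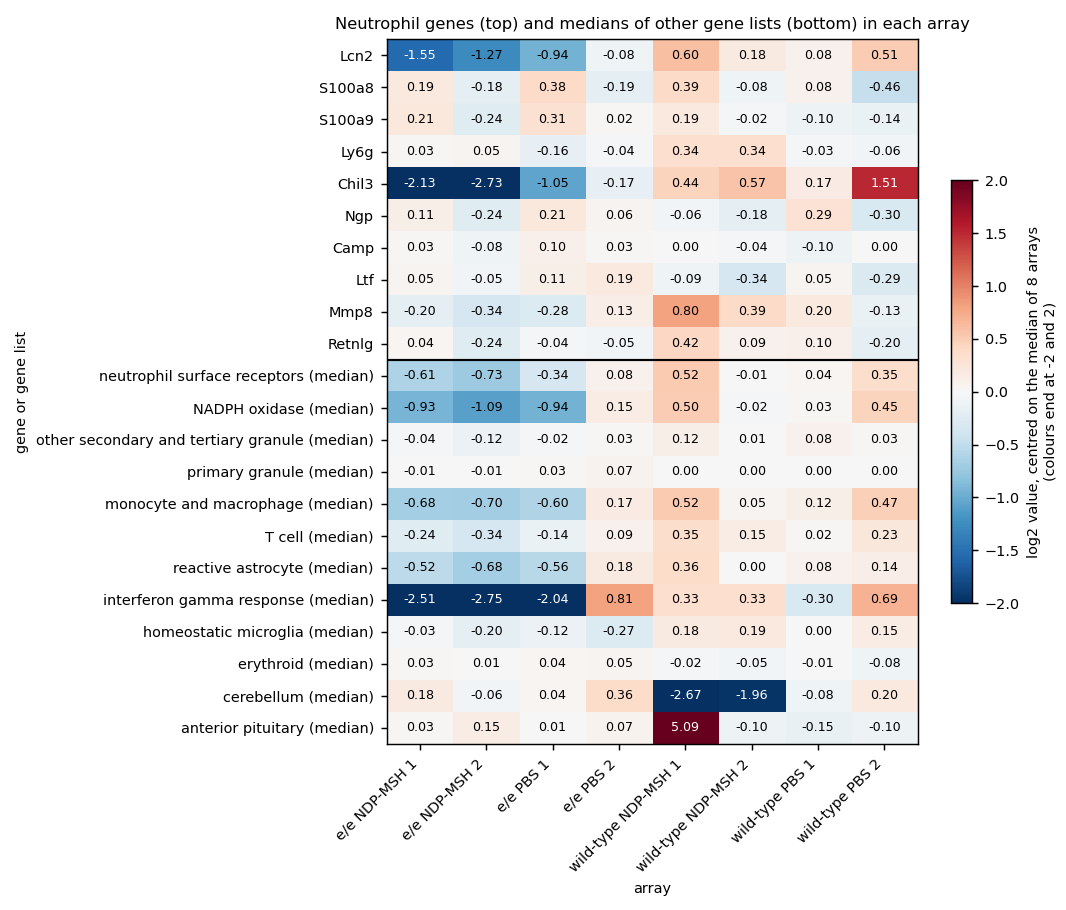
Rows are the 10 genes (above the line) and the medians of 12 other gene lists (below it), columns are the 8 arrays, and each cell prints its log2 value centred on the median of the 8 arrays, with colours that end at -2 and 2. Lcn2 and Chil3 are low in the same 3 e/e arrays as the monocyte and macrophage, NADPH oxidase, reactive astrocyte and interferon gamma medians, whereas Ngp, Camp and Ltf stay between -0.34 and 0.29 with no such order.

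Markers of other cells that can make Lcn2 and Chil3 were low in the same arrays. The median of 13 monocyte and macrophage genes had values of -0.68 and -0.70 in e/e NDP-MSH, -0.60 and 0.17 in e/e PBS, 0.52 and 0.05 in wild-type NDP-MSH and 0.12 and 0.47 in wild-type PBS. That of 11 reactive astrocyte genes had values of -0.52 and -0.68 in e/e NDP-MSH, -0.56 and 0.18 in e/e PBS, 0.36 and 0.00 in wild-type NDP-MSH and 0.08 and 0.14 in wild-type PBS. The 3 arrays lowest in Lcn2 and Chil3 were thus the 3 lowest in both lists. After NDP-MSH in e/e mice 12 of 13 monocyte and macrophage genes and 11 of 11 reactive astrocyte genes were lower, none past the test. Ccr2, the chemokine receptor of inflammatory monocytes, was at -0.68 ± 0.23, Ly6c2 at -0.89 ± 0.37, Osmr, a cytokine receptor of reactive astrocytes, at -0.68 ± 0.21 and Serpina3n, an astrocyte protease inhibitor, at -1.56 ± 0.54 (adjusted p = 1 for each). These 4 values also rested on which e/e PBS array was kept. Without e/e PBS 1, Ccr2 (-1.08, adjusted p = 0.0401) and Osmr (-1.07, adjusted p = 0.0295) passed, and Ly6c2 was at -1.47 and Serpina3n at -2.46. Without e/e PBS 2 they were at -0.29 for Ccr2, -0.30 for Osmr, -0.30 for Ly6c2 and -0.66 for Serpina3n. The interferon gamma response, with 8 genes, had medians of -2.51 and -2.75 in e/e NDP-MSH, -2.04 and 0.81 in e/e PBS, 0.33 and 0.33 in wild-type NDP-MSH and -0.30 and 0.69 in wild-type PBS. Levels on a common scale were not available, so no list could be shown to be at 0, and the part of these cells in the Lcn2 and Chil3 differences was not tested.

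**Figure D4:**
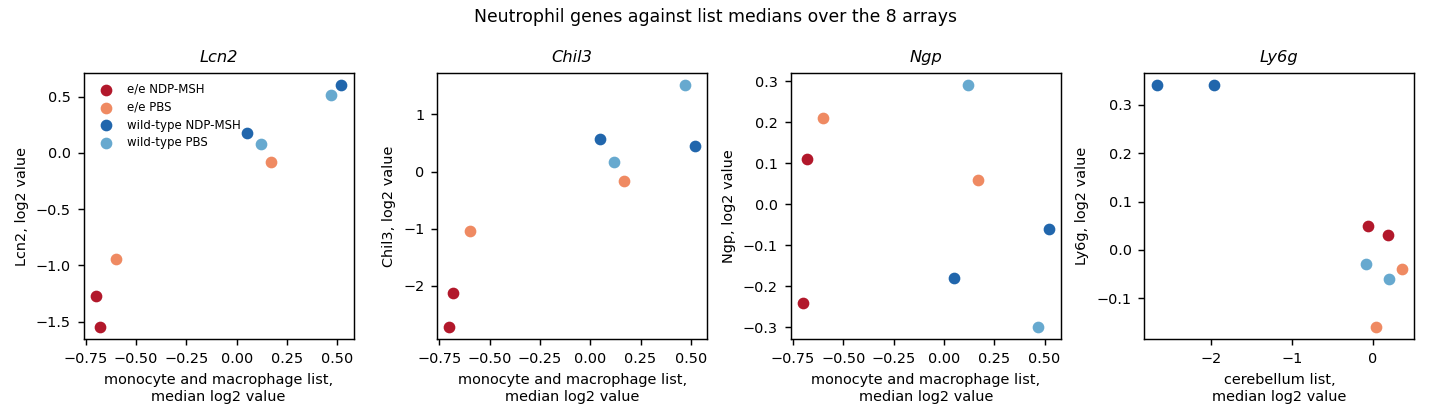
Each point is 1 of the 8 arrays, coloured by group. The x axis is the median log2 value of the monocyte and macrophage list (first 3 panels) or of the cerebellum list (last panel), and the y axis is the log2 value of the gene. Lcn2 and Chil3 are lowest where the list is lowest, Ngp shows no such order, and Ly6g is at 0.34 in the 2 arrays whose cerebellum medians are -2.67 and -1.96.

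As a description of shape over the 8 arrays, the genes outside the set whose values were most like the mean of the 10 were Casp8 (Pearson r = 0.98), Ccl8 (0.97), Prkch (0.97), Stat6 (0.97), 1700128F08Rik (0.96), Dcn (0.96), Isl1 (0.96) and Tnfaip8l2 (0.96). The arrays fall into groups, so such values follow from differences between groups as well as within them. The mean itself was set by few genes: its likeness to single members was 0.91 for Lcn2, 0.88 for Chil3 and 0.84 for Mmp8, against 0.69 for Retnlg, 0.43 for Ly6g, 0.22 for S100a9, 0.16 for S100a8, 0.08 for Ngp, 0.02 for Camp and -0.28 for Ltf. Casp8, the initiator caspase of death receptors, had values of -0.66 and -1.11 in e/e NDP-MSH, -0.51 and 0.00 in e/e PBS, 0.54 and 0.11 in wild-type NDP-MSH and 0.00 and 0.13 in wild-type PBS. Ccl8, a chemokine of monocytes and macrophages, had values of -0.61 and -0.74 in e/e NDP-MSH, -0.16 and 0.03 in e/e PBS, 0.75 and 0.39 in wild-type NDP-MSH and 0.33 and -0.03 in wild-type PBS. Both were lowest in the e/e NDP-MSH arrays, as Lcn2 and Chil3 were. They were picked for likeness to a mean set largely by Lcn2 and Chil3, so this shared shape follows from the choice.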

How the data were processed

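RNA of total brain from 8 samples (4 groups of 2) was measured on Affymetrix whole-transcript arrays. The deposited table holds 33793 probe sets of the authors' processed values, taken as log2. No source used here states the log base, summarisation or normalization. Each row is centred on its median (largest absolute row median 5e-07), and column medians lie between -0.0043 and 0.0142, so no absolute level or filter on dim probes was available. Precision is limited by how few arrays there are.

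Probe sets with 1 gene symbol in the platform annotation (23521) were averaged per gene. Those with several (1814) were left out, and 8458 were unnamed here. Each group had 1 coefficient in limma 3.58.1 (R 4.3.3; lmFit and eBayes, two-sided, 4 residual and 3.45 prior degrees of freedom), fitted to 22180 genes over all 8 arrays, with Benjamini-Hochberg adjustment over all genes at 0.05. The ± values are standard errors. The genotype comparison under NDP-MSH was added after seeing the data. The test was checked on simulated data with independent normal errors. These held no sex-linked, regional or array-wide differences, so the check does not cover those. Values were placed by the single-precision step left in them (tolerance 0.05 of a step).

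The 10 genes and the other 24 lists were chosen with earlier results of these data known. The 10 are named always. From the lists, genes past the threshold or otherwise the 2 with the smallest p in a comparison described are named, and the 8 genes most correlated with the mean of the 10. Mpo and Elane are named as list members only. Alternatives were a replicate block, array weights, quantile normalization, array median centring, only the 4 arrays compared, other probe set rules, robust moderation and leaving out each array. Slide and scan date were not used here. Promoters are from RefSeq. Figures were drawn with matplotlib 3.10.9.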

Additional observations from a re-analysis of the deposited data

How the results depend on the processing

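Of 840 values of the 10 genes under alternatives, 798 kept direction and side of the threshold, 33 changed sign and 9 newly passed, all 9 in the genotype comparison under NDP-MSH. The cause of these changes was not tested. With 2 arrays a group, adjusted p-values lean on the shared estimate of spread. Of the 10 genes, 8 lay in the lower signal range (4 to 8 before centring). Quantile normalization acted on centred values and can itself shrink differences.

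The number of all genes called in the wild-type comparison (39) was 14 with the replicate block, 20 under quantile normalization, 5 with only the 4 arrays compared (fewer samples) and 0 (without wild-type PBS 2) to 49 without 1 array. In e/e mice it was 0 to 51 (without e/e PBS 1). The difference of effects gave 1 under quantile normalization and 0 to 7 without 1 array. Under PBS, e/e against wild-type gave 0 to 4. Under NDP-MSH the 75 (59 higher, 16 lower) were 26 under quantile normalization, all higher, 477 with only the 4 arrays, and 0 (without e/e NDP-MSH 1) to 471 (without either e/e PBS array). The replicate block changed no member's side of the threshold. It took Selplg under NDP-MSH over the threshold (adjusted p = 0.0715). Nothing in the labels pairs same-numbered arrays, and over the 6 pairs of groups the correlation of their deviations ran between -0.25 and 0.44 (wild-type PBS with e/e PBS), with 0.18 within e/e and -0.10 within wild-type mice.

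Most signs that changed without 1 array belonged to small differences. The largest were Cybb (-0.46 ± 0.83), Chil3 (-0.34 ± 0.45) and Mrc1 (0.23 ± 0.16) in the wild-type comparison, and S100a8 (0.29 ± 0.27) under PBS. The genes whose sign changed are given with their ranges. In the wild-type comparison they were Lcn2 -0.12 to 0.31, Ngp -0.41 to 0.18, Camp -0.02 to 0.08, Ltf -0.27 to 0.07, Chil3 -1.01 to 0.34, Prtn3 -0.24 to 0.02, Cybb -1.03 to 0.10, Ncf4 -0.20 to 0.33 and Mrc1 -0.01 to 0.46. In e/e mice they were S100a8 -0.38 to 0.20, S100a9 -0.41 to 0.04, Mmp8 -0.40 to 0.01 and Retnlg -0.20 to 0.08, and in the difference of effects Ngp -0.38 to 0.21 and Ltf -0.22 to 0.12. Under PBS they were Mmp8 -0.32 to 0.09, Ngp -0.15 to 0.44, Retnlg -0.15 to 0.16, S100a8 0.00 to 0.58 and Ly6g -0.11 to 0.01, and under NDP-MSH S100a8 -0.38 to 0.08, S100a9 -0.33 to 0.12, Camp -0.05 to 0.05 and Ngp -0.13 to 0.23. Retnlg under PBS was -0.01 under quantile normalization, and Camp under NDP-MSH was 0.00 under array median centring. Chil3 and Lcn2 stayed below 0 in e/e mice in every alternative.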

Other observations

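Lists of other blood and marrow lineages, which hold none of the 10, had medians near 0 in all 8 arrays, though single genes in them varied more. The median of 5 B cell genes lay between -0.06 and 0.08, that of 5 B cell precursor genes between -0.04 and 0.08, that of 5 platelet and megakaryocyte genes between -0.16 and 0.12, that of 4 erythroid genes between -0.08 and 0.05, and that of 7 mast cell, eosinophil and basophil genes between -0.03 and 0.07. T cell genes had medians over 7 genes of -0.24 and -0.34 in e/e NDP-MSH, -0.14 and 0.09 in e/e PBS, 0.35 and 0.15 in wild-type NDP-MSH and 0.02 and 0.23 in wild-type PBS. In e/e mice all 7 were lower after NDP-MSH and in wild-type mice all 7 were higher, none past an adjusted p of 0.05 in the limma fit, and the difference of these effects did not pass for any of the 7.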
